A study of Rattus norvegicus with 32 samples.

Results

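The genes described here encode ligands, receptors and intracellular mediators of transforming growth factor beta (TGF-beta), and they were followed in rat C6 glioma cells exposed to angiotensin II (Ang II). The rule named 9 genes, Tgfb1, Tgfb2, Tgfb3, Tgfbr1, Tgfbr2, Smad3, Smad7, Skil and Ltbp1, and took every non-control probe that carries one of these names in the scanner files. It found 8 of the 9 genes with 9 probes, among 26583 gene names and 30367 probes on the array, and Tgfbr2 was not analysed here. C6 is an established line of rat glioma. Control cells received no treatment, the Ang II group received Ang II at 100 nM, and the remaining groups were first given Losartan (Ang II+Los) or PD123319 (Ang II+PD123319) at 10 µM and then the same dose of Ang II. Losartan blocks the AT1 receptor and PD123319 the AT2 receptor, so Ang II x Control asked what Ang II changed, and the comparisons of Ang II+Los and of Ang II+PD123319 with Ang II alone (the Losartan and the PD123319 comparison) asked what changed when one of its receptors was blocked. No group received an antagonist without Ang II, so an effect of the drug itself and that of the blocked receptor cannot be told apart. Each of the 8 groups, 4 at 3 h and 4 at 6 h, had 4 replicates on Agilent one-colour arrays, and nothing in the labels says whether replicates were separate cultures, so that the p-values measure the spread between these samples.

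TGF-beta ligands are secreted in a latent form, bound to their own propeptide and to latent TGF-beta binding proteins that anchor them in the extracellular matrix. Once released, a ligand brings the type II receptor together with the type I receptor, which phosphorylates Smad2 and Smad3. These enter the nucleus with Smad4 and switch target genes on or off, among them Smad7 and Skil, whose products restrain the pathway in return. In gliomas the pathway is known for its part in invasion, in the extracellular matrix and in immune suppression.

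The probes decide what was measured, and the sequences of those on which the results below turn are printed as the files give them, in lower case with no part marked. They are Tgfb1 (chromosome 1, 80910123 to 80910182, plus strand), the upstream one of a pair of Tgfb2 probes (chromosome 13, 102801650 to 102801709, minus strand), Skil (chromosome 2, 116669646 to 116670581, minus strand) and Ltbp1 (chromosome 6, 19943398 to 19943457, minus strand), all on rn4.
Tgfb1, A_42_P522899: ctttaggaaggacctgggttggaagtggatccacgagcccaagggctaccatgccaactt
Tgfb2, A_64_P236342: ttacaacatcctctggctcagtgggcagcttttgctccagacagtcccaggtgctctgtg
Skil, A_44_P277264: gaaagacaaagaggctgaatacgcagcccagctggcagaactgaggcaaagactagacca
Ltbp1, A_64_P068865: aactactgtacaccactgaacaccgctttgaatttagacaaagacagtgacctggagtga
The Tgfb1 probe was printed 10 times per array and its spots were averaged, and each of the other probes was printed once. The Skil probe has 60 bases and covers 936 bases of the genome, so that it bridges an intron. The second Tgfb2 probe, A_43_P12532, lies on chromosome 13 from 102718952 to 102719010, 82.7 kb further along the gene. Each Tgfb2 probe lists 2 Ensembl transcripts and 1 of them is listed by both, so the pair need not read the same set of transcripts. The remaining probes are those of Tgfb3 (NM_013174, chromosome 6, 110173856 to 110173915), Tgfbr1 (NM_012775, chromosome 5, 64033998 to 64034057), Smad7 (NM_030858, chromosome 18, 72323004 to 72323063) and Smad3 (NM_013095, chromosome 8, 67804038 to 67804097). Gene models of rn4 were not used here, so no exon or untranslated region is named.

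The level of a probe is given as its log2 signal after normalization among the 16 arrays of a time interval, and levels of different probes are not set against each other. A difference is a log2 fold change with its standard error (SE), fitted by limma within slides, and it passed where the unadjusted p was under 0.05, with the adjusted p given beside it. Each slide held 1 array per group and carried 1 replicate number. Position on the slide was the same for all replicates of a group, so position and treatment cannot be told apart. The share of spots well above background was 56.0% to 64.8% per array at 3 h and 64.1% to 79.7% at 6 h. Of the glial markers, Nes, Vim, Cspg4 and S100b were well above background on all 16 arrays of each time, Olig2 on none, and Gfap on 0 arrays at 3 h and 2 at 6 h. Of the microglial and leukocyte markers, Aif1, Itgam and Cd68 were well above background on all 16 arrays of each time and Ptprc on none. Of the endothelial markers, Pecam1 was so on none, Cdh5 on 12 arrays at 3 h and 16 at 6 h, and Kdr on 6 and 11. Of the neuron markers, Snap25 and Map2 were well above background on all 16 arrays of each time and Syp on 1 and 5.

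Tests could be made for 7 of the members at each time: Tgfb1, Tgfb2, Tgfb3, Tgfbr1, Smad7, Skil and Ltbp1. Smad3, which carries the signal of the activated receptors into the nucleus, was well above background on 0 of 16 arrays at 3 h and on 1 of 16 at 6 h. No level is given for it in any group. Skil was dim at 3 h, with 14 of 16 arrays well above background. In Ang II and in Ang II+PD123319 it was so on 3 of 4 arrays. It entered the 3 h tests through Control and Ang II+Los, each with 4 of 4 arrays well above background. The upstream Tgfb2 probe reached this limit on 6 of 16 arrays at 3 h and was left out there, so Tgfb2 rests on 1 probe at 3 h and on the mean of both at 6 h.

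At 6 h, 3 of the 7 members passed in Ang II x Control, where 21.5% of all genes tested passed. Tgfb1 was higher with Ang II (0.42 on the log2 scale), while Tgfbr1 (-0.43) and Tgfb2 (-0.66) were lower. Tgfb3, Smad7, Skil and Ltbp1 did not pass. After Benjamini-Hochberg adjustment over the 16441 genes tested, no member passed in limma, nor did any other gene (lowest adjusted p = 0.0573). At 3 h, 0 of the 7 passed in the same comparison, where 12.7% of genes did.

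**Figure D1:**
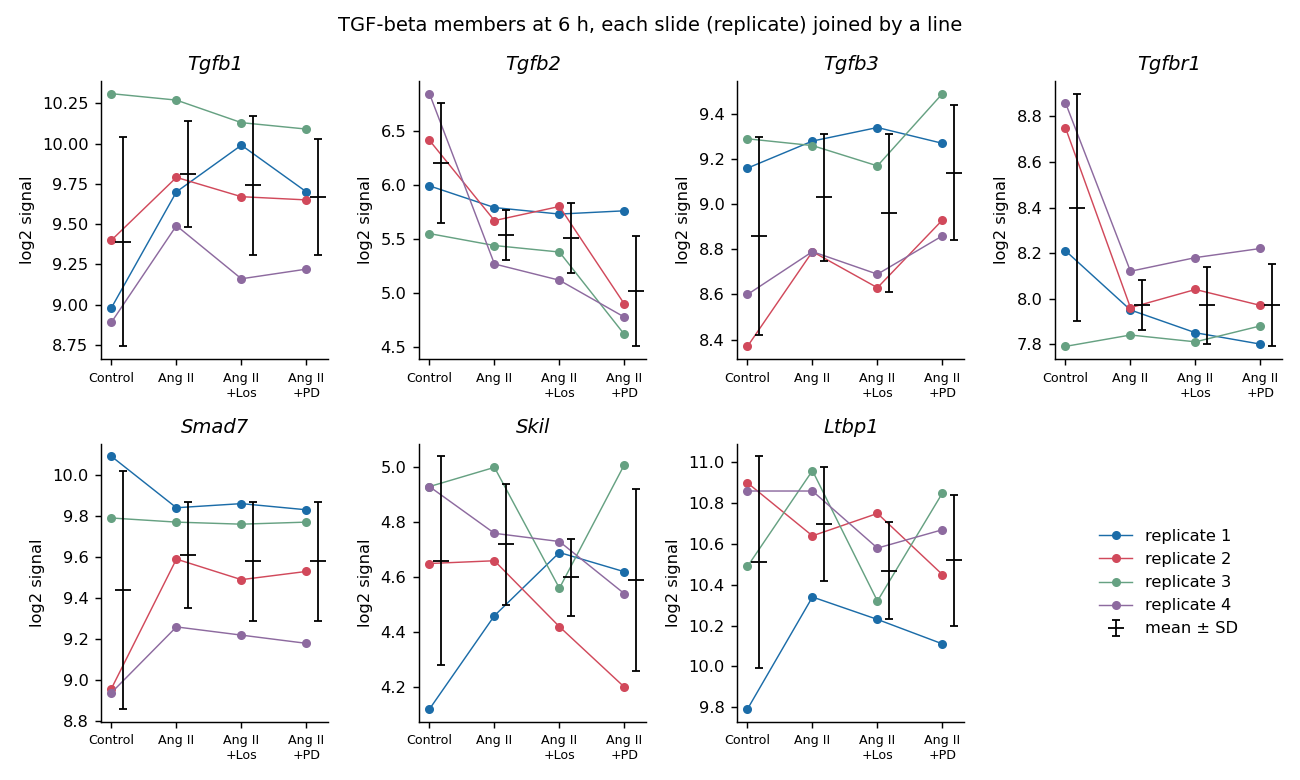
Log2 signal (vertical axes, each with its own range) of the 7 tested members at 6 h in Control, Ang II, Ang II+Los and Ang II+PD123319 (shown as Ang II +PD), with 1 point per array, lines joining the arrays of a slide, and the mean ± SD of 4 arrays beside them. For Tgfb1 and Tgfbr1, replicate 3 (green) is nearly flat from Control to Ang II, and the other replicates rise for Tgfb1 and fall for Tgfbr1.

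Tgfb1 encodes the ligand TGF-beta 1. In Control at 6 h, its log2 signal was 8.98, 9.40, 10.31 and 8.89 in replicates 1 to 4, and with Ang II it was 9.70, 9.79, 10.27 and 9.49. Replicate 3 was the highest of both groups and the groups overlapped, but within slides Ang II was higher in 3 of 4, by 0.72, 0.39 and 0.60, and the difference was -0.04 in replicate 3. The log2 fold change was 0.42 (SE 0.15, limma adjusted p = 0.15), a 1.34-fold level. Levels averaged 9.39 ± 0.65 (SD, n = 4) in Control and 9.81 ± 0.33 (SD, n = 4) with Ang II. With the antagonists, Tgfb1 was at 9.74 ± 0.43 with Losartan and 9.67 ± 0.36 with PD123319 (SD, n = 4 each). Their differences from Ang II were -0.07 (95% interval -0.40 to 0.25) and -0.15 (95% interval -0.47 to 0.17). The call for Ang II x Control did not hold without replicate 2, with 0.43, or without replicate 4, with 0.36.

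Tgfbr1 encodes the type I receptor, the kinase that phosphorylates Smad2 and Smad3. Its log2 signal at 6 h was 8.21, 8.75, 7.79 and 8.86 in Control and 7.95, 7.96, 7.84 and 8.12 with Ang II. The Ang II arrays lay between 7.84 and 8.12 and those of Control between 7.79 and 8.86, and replicate 3 of Control was below all Ang II arrays. Within slides, the differences were -0.26, -0.78, 0.06 and -0.74. The log2 fold change was -0.43 (SE 0.13, limma adjusted p = 0.118). Levels with Losartan and with PD123319 were 7.97 ± 0.17 and 7.97 ± 0.18 (SD, n = 4 each), against 7.97 ± 0.11 with Ang II alone, and both differences were 0.00 (SE 0.13, 95% interval -0.28 to 0.28). The 3 groups that received Ang II thus shared 1 mean, and Control had 8.40 ± 0.50 (SD, n = 4). Without replicate 2 its value was -0.32 and without replicate 4 it was -0.33, and neither passed.

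Tgfb2 encodes the ligand TGF-beta 2, which glioma cells are known to secrete. Its 6 h level, as the mean of both probes, was 5.99, 6.41, 5.55 and 6.84 in Control and 5.79, 5.67, 5.44 and 5.27 with Ang II. Ang II was lower on 4 of 4 slides, at -0.20, -0.75, -0.12 and -1.57, although the groups overlapped. The log2 fold change was -0.66 (SE 0.25, limma adjusted p = 0.174). It was not past the limit without replicate 2, with -0.62, or without replicate 4, with -0.35, or with a normexp background correction (offset 50), with -0.29. The authors' deposited values held the upstream probe on 15 arrays at 6 h, with a gap, and the fit of these values left it out. With the downstream probe only, that fit gave -0.17 and did not pass. For both probes together, the mean within the scan of replicates 1 to 3 was -0.35, and replicate 4 was scanned on another day.

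The mean of the Tgfb2 probes hides a difference between them. The upstream probe, printed above, fell from 5.80, 5.74, 5.40 and 7.09 in Control to 5.29, 4.82, 4.87 and 4.36 with Ang II, and no Ang II array reached the lowest Control array. Its log2 fold change at 6 h, with every probe fitted on its own and no filter, was -1.17 (SE 0.42) and passed, with slides at -0.50, -0.92, -0.53 and -2.72. The downstream probe gave -0.15 (SE 0.17) and did not pass, with slides at 0.10, -0.57, 0.29 and -0.42. The difference of the upstream probe was below that of the downstream probe on 4 of 4 slides, at -0.61, -0.35, -0.82 and -2.30. Their mean was -1.02 ± 0.87 (SD, n = 4), with p = 0.125 in a two-sided exact permutation test that flips the signs over slides, which is the smallest p that 4 slides allow. In the PD123319 comparison, the upstream probe gave 0.06, -1.09, -1.52 and -0.95 and the downstream probe -0.13, -0.44, -0.10 and -0.03. Replicates 2 to 4 of the PD123319 group, at 3.73, 3.35 and 3.41, had the lowest signals of the upstream probe on the 6 h arrays, and the difference between the probes had p = 0.25 in the same exact test. For the mean of both probes, the log2 fold change was -0.53 (SE 0.25, limma adjusted p = 0.80, 95% interval -1.07 to 0.02) and did not pass. It passed without replicate 1, with -0.69, without replicate 4, with -0.54, and after quantile normalization, with -0.53. With Losartan, the upstream probe stayed near its level with Ang II, at -0.04, 0.42, -0.07 and -0.01.

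**Figure D2:**
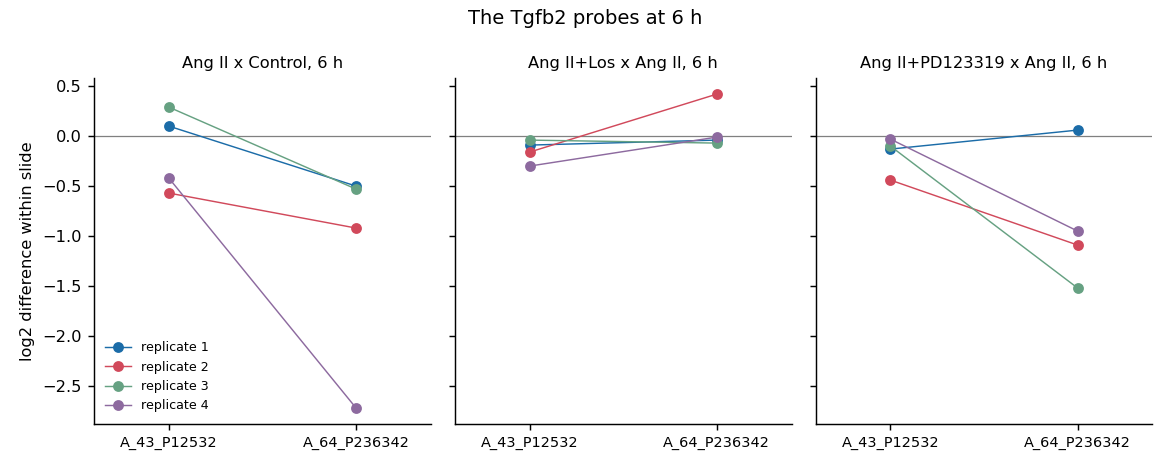
Log2 difference within each slide at 6 h (vertical axis) for the downstream Tgfb2 probe (A_43_P12532) and the upstream one (A_64_P236342), 1 line per replicate, in Ang II x Control and in the comparisons of each antagonist group with Ang II. In Ang II x Control all 4 lines descend towards the upstream probe, with PD123319 those of replicates 2 to 4 do, and with Losartan 1 does, at -0.03.

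Tgfb3, the third ligand, was 9.16, 8.37, 9.29 and 8.60 in Control at 6 h and 9.28, 8.79, 9.26 and 8.79 with Ang II. Its log2 fold change was 0.18 (SE 0.08, limma adjusted p = 0.25, 95% interval -0.01 to 0.36). Replicate 3 was again the slide without a rise, at -0.03, and without it Tgfb3 passed with 0.25. Smad7, the inhibitor that binds the type I receptor, was 10.09, 8.96, 9.79 and 8.94 in Control and 9.84, 9.59, 9.77 and 9.26 with Ang II. Its slides went both ways, at -0.25, 0.63, -0.02 and 0.32, and the log2 fold change of 0.17 (SE 0.12, limma adjusted p = 0.442) did not pass, with an interval from -0.10 to 0.43. It passed without replicate 1, with 0.31, and both Smad7 (0.23) and Tgfb3 (0.18) passed with the normexp background. Skil, whose product SnoN binds SMADs and represses their targets, had 0.06 (SE 0.15, 95% interval -0.28 to 0.40), and Ltbp1, which holds the latent ligand in the matrix, had 0.19 (SE 0.15, 95% interval -0.14 to 0.52).

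In the Losartan comparison at 6 h, 0 of 7 members passed, against 2.00% of all genes, with log2 fold changes between -0.23 (Ltbp1) and 0.00 (Tgfbr1). In the PD123319 comparison at 6 h, 0 of 7 passed as well, against 6.37% of all genes, with values between -0.53 (Tgfb2) and 0.11 (Tgfb3). The difference of Smad7 from Ang II was -0.03 with Losartan and -0.04 with PD123319, both with an interval from -0.30 to 0.23. The comparisons with an antagonist share their Ang II arrays with Ang II x Control and with each other.

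**Figure D3:**
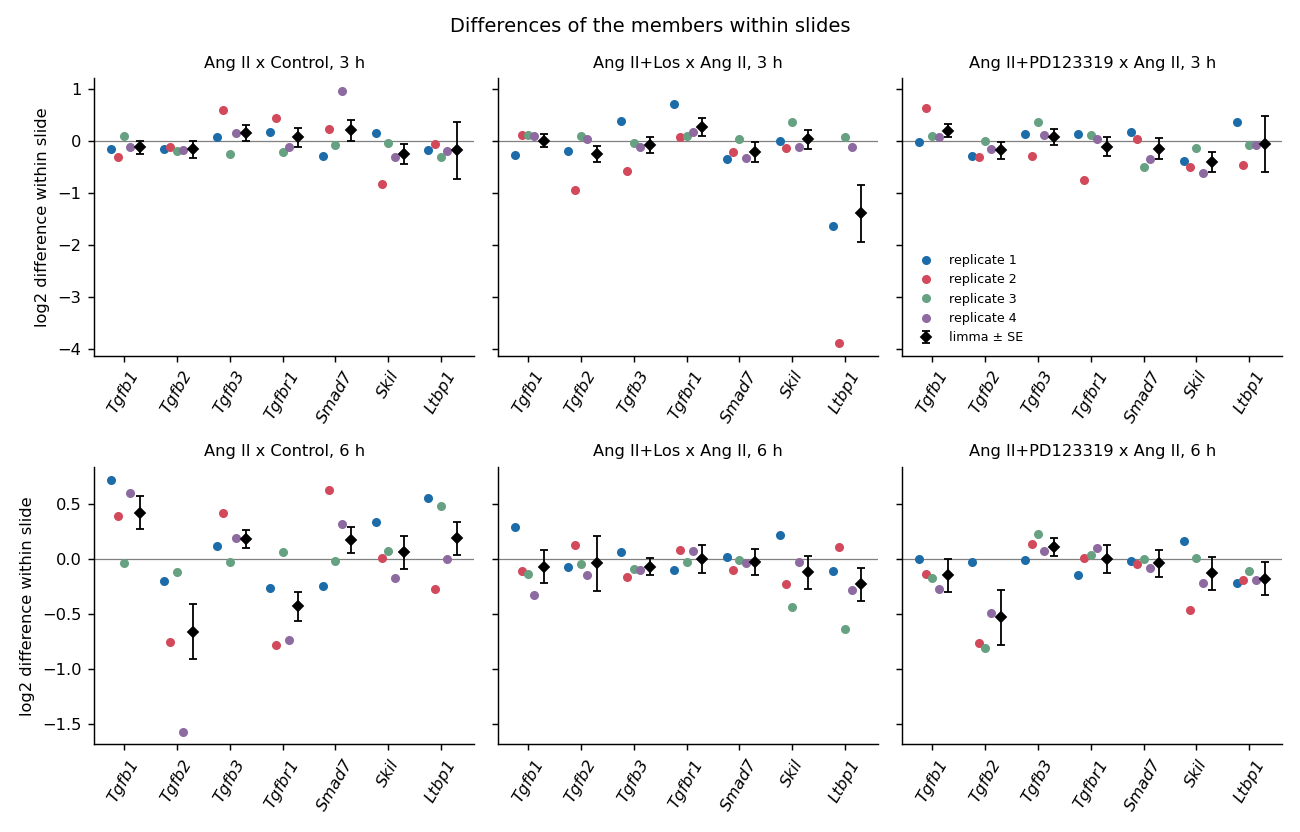
Log2 differences within slides (coloured points, 1 per replicate) and the limma log2 fold change ± SE (black diamonds) of the 7 members in Ang II x Control and in the comparisons of each antagonist group with Ang II at 3 h (upper row) and 6 h (lower row, with a narrower range). The diamonds farthest from 0 are those of Tgfb1, Tgfb2 and Tgfbr1 in Ang II x Control and Tgfb2 with PD123319 at 6 h, and at 3 h that of Ltbp1 with Losartan, which rests on replicates 1 and 2.

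The changes with Ang II at 6 h were not seen at 3 h for Tgfb1 and Tgfbr1. At 3 h, Tgfb1 was 9.81, 9.31, 9.03 and 9.51 in Control and 9.65, 9.0, 9.13 and 9.39 with Ang II, lower on 3 of 4 slides, with a log2 fold change of -0.12 (SE 0.13, limma adjusted p = 0.685). Tgfbr1 was 7.65, 8.42, 9.14 and 8.40 in Control and 7.84, 8.86, 8.92 and 8.27 with Ang II, higher on 2 slides and lower on 2, with 0.07 (SE 0.18, limma adjusted p = 0.884). The change in the difference from 3 h to 6 h was tested on all 32 arrays, where 7.18% of 13614 genes passed for Ang II x Control and 2 of the 7 members did. It was 0.54 for Tgfb1 (SE 0.19, limma adjusted p = 0.669) and -0.50 for Tgfbr1 (SE 0.22, limma adjusted p = 0.676). For Tgfb1 it did not hold without replicate 2 (0.48) or replicate 4 (0.48), and for Tgfbr1 without replicate 1 (-0.53), replicate 2 (-0.27) or replicate 4 (-0.46), where a replicate number was left out at both times. For Tgfb2 it was -0.50 (SE 0.30, limma adjusted p = 0.708), a value that compares 1 probe at 3 h with the mean of both at 6 h. The downstream probe alone gave -0.16 at 3 h and -0.15 at 6 h in Ang II x Control, and the upstream probe, dim at 3 h, gave -0.02 there, with slides from -1.06 to 1.70. In the antagonist comparisons 0 of 7 members passed this test, where 5.08% of genes passed for Losartan and 1.71% for PD123319.

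**Figure D4:**
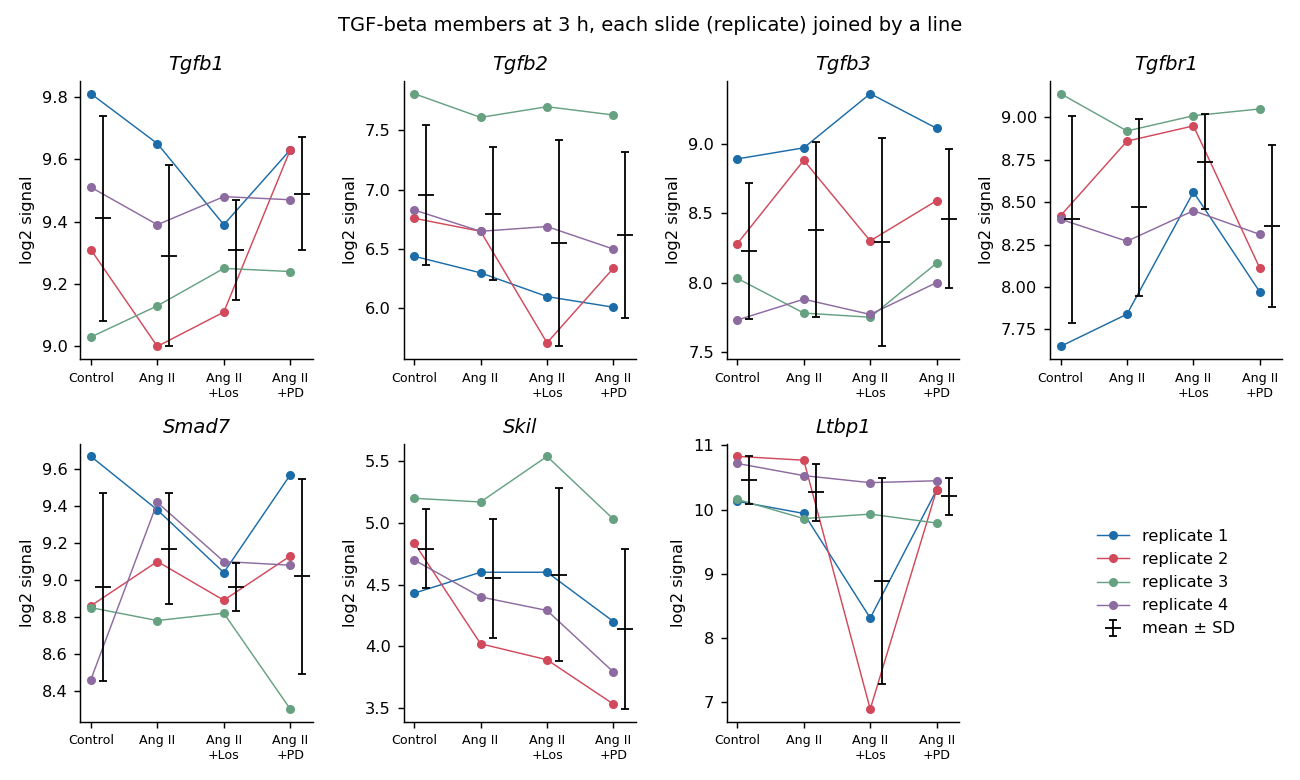
Log2 signal (vertical axes, each with its own range) of the 7 tested members at 3 h in Control, Ang II, Ang II+Los and Ang II+PD123319 (shown as Ang II +PD), with 1 point per array, lines joining the arrays of a slide, and the mean ± SD of 4 arrays beside them. Replicates 1 and 2 of Ltbp1 drop in the Ang II+Los group, to 8.31 and 6.89, and the other arrays of Ltbp1 lie between 9.79 and 10.83.

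None of the other members passed at 3 h in Ang II x Control. Tgfb2, by its downstream probe, was 6.44, 6.76, 7.81 and 6.83 in Control and 6.30, 6.65, 7.61 and 6.65 with Ang II. It was lower on 4 of 4 slides by a small and even amount, -0.15, -0.11, -0.20 and -0.18, with a log2 fold change of -0.16 (SE 0.16, limma adjusted p = 0.663). Ltbp1 was also lower on 4 of 4 slides, at -0.18, -0.06, -0.30 and -0.20, with -0.18 (SE 0.54, limma adjusted p = 0.902). Both passed in a test per gene paired by slide, which takes the spread from these slides only, and neither passed in an unpaired one. Smad7 had 0.21 (SE 0.20), with 0.96 in replicate 4, Tgfb3 had 0.15 (SE 0.15), and Skil had -0.25 (SE 0.19), with -0.82 in replicate 2.

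With Losartan at 3 h, 1 of 7 members passed, against 11.0% of all genes. Ltbp1 was 8.31, 6.89, 9.93 and 10.42 with Ang II+Los and 9.94, 10.77, 9.86 and 10.53 with Ang II. Its drop was found on the slides of replicates 1 and 2, at -1.63 and -3.88, and not on those of replicates 3 and 4, at 0.07 and -0.11. The log2 fold change was -1.39 (SE 0.54, limma adjusted p = 0.426), with -0.56 and no call without replicate 2, and -1.31 and no call without replicate 1. Replicates 1 and 2 were scanned on 1 day and replicates 3 and 4 on another, and the mean difference was -2.76 within the first scan and -0.02 within the second. On the slides of replicates 1 and 2, 349 and 867 of the genes tested were lower by over 1.5 on the log2 scale, against 0 and 1 on those of replicates 3 and 4, and the part of these arrays in the value of Ltbp1 was not tested. Among genes of the pathway, Acvr1, a type I receptor of the activin and BMP branch, went the same way, at -1.06, -4.32, -0.17 and -0.20, and so did the target gene Bhlhe40, at -2.44, -3.76, 0.17 and 0.17. Both were picked after their values were seen, and neither passed without replicate 1 (-1.57 for Acvr1 and -1.15 for Bhlhe40) or replicate 2 (-0.49 and -0.71). At 6 h, Ltbp1 was 10.23, 10.75, 10.32 and 10.58 with Ang II+Los and 10.34, 10.64, 10.96 and 10.86 with Ang II, with a log2 fold change of -0.23 (SE 0.15, limma adjusted p = 1.00). The change of this difference between the times was 1.16 (SE 0.60, limma adjusted p = 0.701) and did not pass, but it passed without replicate 3, with 1.79, and without replicate 4, with 1.59.

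The remaining members did not pass with Losartan at 3 h. Tgfbr1 was higher on 4 of 4 slides, at 0.72, 0.08, 0.09 and 0.18, with a log2 fold change of 0.27 (SE 0.18, limma adjusted p = 0.47). Tgfb2 had -0.25 (SE 0.16, limma adjusted p = 0.451), with -0.94 in replicate 2, and the values of Tgfb1, Tgfb3, Smad7 and Skil lay between -0.21 and 0.03.

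With PD123319 at 3 h, 1 of 7 members passed, against 3.01% of all genes. Skil was 4.20, 3.53, 5.03 and 3.79 with Ang II+PD123319 and 4.60, 4.02, 5.17 and 4.40 with Ang II. It was lower on 4 of 4 slides, at -0.39, -0.49, -0.14 and -0.61, with overlapping groups. The log2 fold change was -0.41 (SE 0.19, limma adjusted p = 1.00). It did not pass without replicate 1, with -0.42, or without replicate 4, with -0.34. With the normexp background it was -0.11 and after scaling to the 75th percentile it was -0.27, neither of which passed. At 6 h, where its probe was well above background on all 16 arrays, Skil had -0.13 (SE 0.15, limma adjusted p = 0.934). Tgfb1 was 9.63, 9.63, 9.24 and 9.47 with PD123319 at 3 h, with slides at -0.02, 0.63, 0.10 and 0.08, and its log2 fold change of 0.20 did not pass (limma adjusted p = 1.00). The values of the others lay between -0.18 (Tgfb2) and 0.08 (Tgfb3).

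Other genes of the pathway were taken from lists of the latent complex and its activation, receptors and co-receptors, SMADs and partners, inhibitors and turnover, target genes, and the activin and BMP branch. Of 86 genes listed, 78 were found on the array, and 51 were tested at 3 h and 61 at 6 h. In Ang II x Control, 5 of 51 passed at 3 h (3 higher, 2 lower; median log2 fold change -0.04, against 0.00 over all genes) and 16 of 61 at 6 h (7 higher, 9 lower; median 0.01, against -0.01). These are 9.8% and 26.2% of the listed genes, near the 12.7% and 21.5% of all genes. With Losartan, 7 of 51 passed at 3 h, all lower, and 4 of 61 at 6 h, all lower, with medians of -0.20 and -0.06 against 0.00 over all genes at both times. These are 13.7% and 6.56% of the listed genes, against 11.0% and 2.00% of all genes, which passed in both directions. With PD123319, 3 of 51 passed at 3 h, all lower, and 8 of 61 at 6 h, 4 in each direction, with medians of -0.05 and -0.04 against -0.02 and 0.00. These are 5.88% and 13.1%, against 3.01% and 6.37% of all genes. Few of these calls held without each replicate in turn: 1 of 5, 1 of 7 and 1 of 3 at 3 h in Ang II x Control, with Losartan and with PD123319, and 1 of 16, 0 of 4 and 4 of 8 at 6 h.

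**Figure D5:**
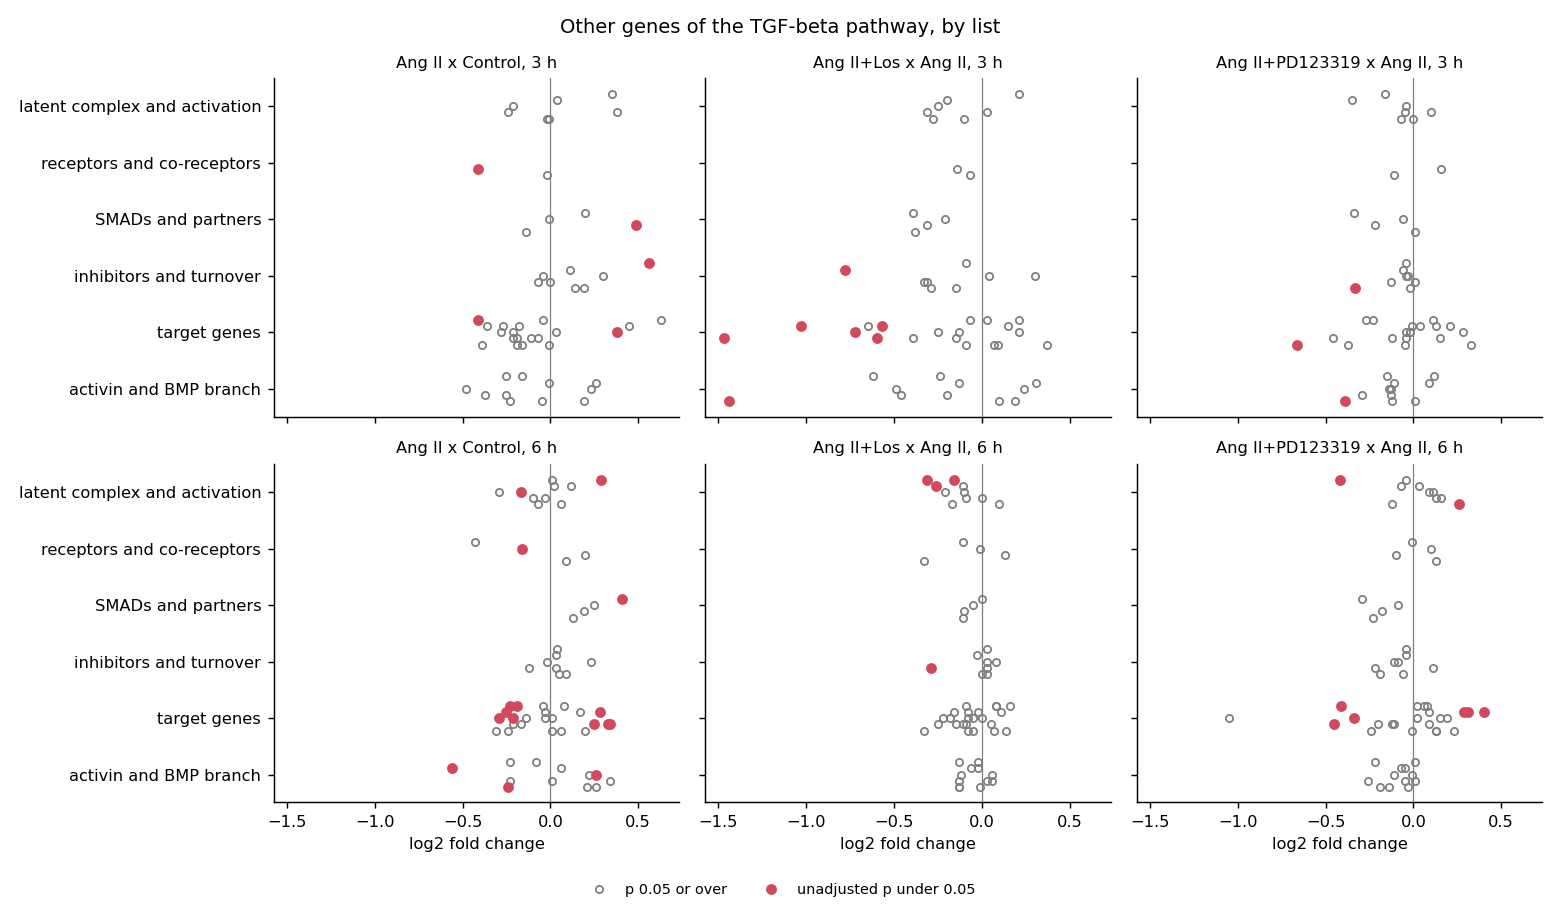
Log2 fold changes (horizontal axis) of the listed genes tested, by list (rows), in Ang II x Control and in the comparisons of each antagonist group with Ang II at 3 h (upper panels) and 6 h (lower panels), with filled red points for genes with an unadjusted limma p under 0.05 and open grey points for the others. Vertical offsets within a row only separate the points. The target genes hold 9 of the 16 genes that passed in Ang II x Control at 6 h, 4 higher and 5 lower. They are 23 of the 61 listed genes tested there, and 39.1% of them passed, against 21.5% of all genes.

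Of the latent complex and its activators, 0 of 7 passed at 3 h in any comparison, and at 6 h 2 of 10 passed with Ang II, 3 with Losartan and 2 with PD123319, where 21.5%, 2.00% and 6.37% of all genes did. Thbs1, or thrombospondin 1, an activator of latent TGF-beta, was higher with Ang II at 6 h and lower when either antagonist was given. Its log2 fold changes were 0.29 (SE 0.11, limma adjusted p = 0.184) in Ang II x Control, -0.31 (SE 0.11, limma adjusted p = 1.00) with Losartan and -0.42 (SE 0.11, limma adjusted p = 0.489) with PD123319. These comparisons share the Ang II arrays, whose mean was 4.84 against 4.56 in Control, 4.53 with Losartan and 4.42 with PD123319, and slides gave 0.29, 0.34, 0.41 and 0.10 with Ang II. None of the 3 passed with the normexp background (0.09, -0.10 and -0.11). The call in Ang II x Control did not hold without replicate 1 (0.30), 2 (0.26) or 3 (0.24), that with Losartan not without replicate 1 (-0.32) or 3 (-0.18), and that with PD123319 held without any one replicate, although replicate 4, alone in its scan, gave 0.03. Bmp1, a protease that processes matrix proteins and Ltbp1, was higher with PD123319 at 6 h by 0.26 (SE 0.08, limma adjusted p = 0.558), on 4 of 4 slides, and did not pass without replicate 1, with 0.22. Ltbp4, a latent TGF-beta binding protein, and Itgb6, a subunit of an integrin that releases latent TGF-beta, were lower with Losartan at 6 h, with -0.26 and -0.16. Ltbp4 did not hold without replicate 2 (-0.25), 3 (-0.21) or 4 (-0.22), and Itgb6 not without replicate 1 (-0.18), 2 (-0.18), 3 (-0.14) or 4 (-0.16).

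Of the receptors and co-receptors, 2 of 7 were tested at 3 h and 4 of 7 at 6 h. Bambi, a decoy for type I receptors, was lower with Ang II at 3 h, with -0.41 (SE 0.18, limma adjusted p = 0.380), with slides at 0.11, -0.79, -0.06 and -0.91, and did not pass without replicate 2 (-0.28) or replicate 4 (-0.25). Of the SMADs and their partners, 4 of 5 were tested at each time. Smad2 was higher with Ang II at 3 h by 0.49 (SE 0.22, limma adjusted p = 0.391), with slides at 0.45, 1.08, 0.45 and -0.03, and did not pass without replicate 1 (0.51), 2 (0.30) or 3 (0.50). Of 8 inhibitors and turnover genes tested at each time, 1 (12.5%) passed at 3 h in each of Ang II x Control, Losartan and PD123319. There, 12.7%, 11.0% and 3.01% of all genes passed. At 6 h, 0, 1 and 0 passed in the same order, where 21.5%, 2.00% and 6.37% of all genes did. Smad6, an inhibitory SMAD that acts mainly on the BMP branch, was higher with Ang II at 3 h by 0.56 (SE 0.18, limma adjusted p = 0.322), at 0.00, 0.98, 0.29 and 0.97 on the slides, and did not pass without replicate 4 (0.43). Ppm1a, a phosphatase of Smad2 and Smad3, was lower with Losartan at 3 h, with -0.78 (SE 0.28, limma adjusted p = 0.426), with -2.25 in replicate 2 and a value of -0.30 without it, which passed. Its mean was -1.41 within the first scan and -0.16 within the second. Smurf2, a ubiquitin ligase for receptors and SMADs, was lower with PD123319 at 3 h on 4 of 4 slides, with -0.33 (SE 0.13), and did not pass without replicate 2 (-0.34) or replicate 4 (-0.28).

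Among the target genes, the calls that held without each replicate in turn included Tagln with Ang II at 3 h and, with PD123319, Ctgf at both times and Col1a1 at 6 h. None of the calls named here passed without the replicate block or in an unpaired test per gene. Col1a1 also did not pass in the test paired by slide (0.40), and its values over the alternatives lay between 0.16 and 0.63. Ctgf, a matrix protein that TGF-beta induces, was lower with PD123319 than with Ang II alone on 4 of 4 slides at 6 h, at -0.26, -0.56, -0.47 and -0.49, with a log2 fold change of -0.45 (SE 0.13, limma adjusted p = 0.526). At 3 h it had -0.66 (SE 0.17, limma adjusted p = 1.00). With Ang II alone against Control at 6 h it had -0.21 (SE 0.13) and did not pass. Other target genes went the opposite way with PD123319 at 6 h: Col1a1, a collagen chain, was higher by 0.40 (SE 0.09, limma adjusted p = 0.455) on the 3 slides where it was measured, and Tgfbi by 0.29 (SE 0.10, limma adjusted p = 0.644) on 4 of 4. Tgfbi did not pass without replicate 2 (0.23) or replicate 4 (0.26). In all, 6 of 23 target genes passed there, 3 in each direction, or 26.1% against 6.37% of all genes. In the same comparison, 1 of 4 glial markers tested, S100b (0.28, SE 0.10), and 1 of 3 microglial and leukocyte markers tested, Aif1 (0.39, SE 0.12), were higher, with medians of 0.06 and 0.19 over these lists, and their part in these results was not tested.

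In Ang II x Control, 2 of 19 target genes passed at 3 h and 9 of 23 at 6 h, or 10.5% and 39.1%, against 12.7% and 21.5% of all genes. Tagln, or transgelin, an actin-binding protein of smooth muscle, was higher at 3 h on 4 of 4 slides, at 0.10, 0.56, 0.55 and 0.32, with 0.38 (SE 0.11, limma adjusted p = 0.322). Col1a2 was lower at 3 h, with -0.41 (SE 0.18) and did not pass without replicate 1 (-0.46), 2 (-0.27) or 3 (-0.32). At 6 h, Bhlhe40 was higher by 0.34 (SE 0.11, limma adjusted p = 0.124) and Id1, a helix-loop-helix inhibitor, by 0.28 (SE 0.11), and Zeb2, a transcriptional repressor, was lower, with -0.21 (SE 0.07). The other target genes that passed at 6 h, given after their values were seen, were Klf10 (0.33) and Tagln (0.25), which were higher, and the matrix genes Fn1 (-0.29), Col1a1 (-0.25), Col1a2 (-0.19) and the protease inhibitor Timp1 (-0.23), which were lower. Each of these 6 calls ended without some replicates: Klf10 without 2 (0.24), 3 (0.37) or 4 (0.28), Tagln without 1 (0.20) or 2 (0.13), Fn1 without 2 (-0.17), 3 (-0.31) or 4 (-0.28), Col1a1 without 1 (-0.12), 3 (-0.24) or 4 (-0.28), Col1a2 without 1 (-0.18), 2 (-0.09) or 4 (-0.18), and Timp1 without 3 (-0.25) or 4 (-0.15). Col1a1 had -0.09 with a stricter filter on dim probes and -0.11 with the deposited values, and passed with neither. Without replicate 4, Bhlhe40, Id1 and Zeb2 did not pass (0.30, 0.23 and -0.19), Id1 also not without replicate 2 (0.19), nor Zeb2 without replicate 1 (-0.14). With Losartan at 3 h, 5 of 19 target genes passed (26.3%, against 11.0% of all genes), all lower, among them Snai2 at -0.60 (SE 0.23) and Zeb1 at -0.72 (SE 0.28), both transcription factors of the epithelial-mesenchymal transition. Snai2 did not pass without replicate 2 (-0.34) or replicate 4 (-0.61), nor Zeb1 without replicate 1 (-0.55). Zeb1 had -1.19 within the first scan and -0.25 within the second, and Snai2 had -0.66 and -0.55. The others, given after their values were seen, were Id2 (-1.94 and -0.12), Tgfb1i1 (-1.01 and -0.12) and Bhlhe40 (-3.1 and 0.17) within these scans. The part of the first scan in these calls was not tested. At 6 h, 0 of 23 passed with Losartan.

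Inhba, which encodes the activin subunit beta A, a relative of the TGF-beta ligands, gave the lowest p of the listed genes over the 6 comparisons. It was lower with Ang II at 6 h on 4 of 4 slides, at -0.56, -0.61, -0.34 and -0.72, with a log2 fold change of -0.56 (SE 0.12, limma adjusted p = 0.0676), and it passed in 13 of the 14 alternatives run, the exception being an unpaired test per gene. Its mean level was 10.28 in Control, 9.72 with Ang II, 9.66 with Losartan and 9.65 with PD123319, and the differences of the antagonist groups from Ang II were -0.06 and -0.07 (SE 0.12 each). At 3 h it was also lower on 4 of 4 slides, with -0.48 (SE 0.29), and did not pass (limma adjusted p = 0.478). Smad1, a SMAD of the BMP branch, was lower at 6 h, with -0.24 (SE 0.09, limma adjusted p = 0.153), and did not pass without replicate 1 (-0.16) or replicate 4 (-0.25). Fst, or follistatin, which binds activin, was lower with PD123319 at 3 h, with -0.39 (SE 0.14, limma adjusted p = 1.00), at -0.38, -0.35, -0.39 and -0.42, and did not pass without replicate 3 (-0.39).

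The gene whose pattern was most like that of each member was sought among 13232 genes with no gap, by Pearson's r of values centred within slides over the 32 arrays. These arrays share slides and treatments, and the values describe likeness only. For Ltbp1 it was Myof (r = 0.98), for Tgfbr1 Agap1 (0.91), for Tgfb1 a probe without a gene symbol, A_64_P046785 (0.87), for Tgfb2 Sgms2 (0.85), for Smad7 Snap29 (0.84), for Tgfb3 Parp9 (0.81) and for Skil Myc (0.80). The arrays include replicates 1 and 2 of Ang II+Los at 3 h, where Ltbp1 fell to 8.31 and 6.89. There, 349 and 867 genes were lower than with Ang II by over 1.5. The part of these arrays in the r of Ltbp1 was not tested. Between members, r was lowest for Tgfb1 and Tgfbr1, at -0.75, with -0.87 over the 3 h arrays and -0.71 over the 6 h arrays. At 6 h it was lower still for Tgfb2 and Tgfb3, at -0.79, and for Tgfbr1 and Smad7, at -0.72.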

How the data were processed

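Rat C6 cells were profiled on 32 one-colour arrays. The deposited scanner files hold background-subtracted intensity values per spot from Feature Extraction 9.5.3.1, with probes placed on rn4. The authors also deposited the log2 of this intensity per probe, with no scaling between arrays and 38.2% of values left blank, which served as an alternative. From the scanner intensities, outlier-flagged spots were dropped, dim spots at 3 h were set to the error of their signal (as the scanner software had done at 6 h), spots of a probe were averaged, and log2 values were normalized by cyclic loess (span 0.7, 3 iterations) within each time. A probe with over 2 gaps was dropped. A probe entered if every one of the 4 arrays in some group had it well above background, and probes of a gene were averaged, which gave 13627 genes at 3 h and 16441 at 6 h. Limma 3.58.1 (R 4.3.3) compared groups over the 16 arrays of a time, blocked by replicate number, with Benjamini-Hochberg adjustment over all genes, and the difference between times was fitted over all 32 arrays. The block rests on the scanner headers, which put each replicate number on 1 slide. Deviations of arrays that share a slide correlated with r from 0.15 to 0.92 at 3 h and from 0.55 to 0.83 at 6 h. The code was tested on simulated data.

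Alternatives were a fit without the block, the methods' t-test on the same values, paired here by slide, 75th percentile scaling, quantile normalization and a normexp background (offset 50). Others were stricter and absent filters, probes taken singly, the authors' values, and each replicate left out. The methods do not state pairing for the arrays, and the record of the series names paired t-tests. The unpaired form of the t-test and means within each scan day were added after seeing the data. Members and lists were chosen with earlier results of these data known. Of the listed genes, up to 3 with the lowest p per direction and comparison were named, and exceptions are marked. A result that rests on a withheld item is not reported here. The number of arrays limits the precision. Figures were made in matplotlib 3.10.9.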

Additional observations from a re-analysis of the deposited data

Results flagged for a closer look

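For Ang II x Control, the effect at 6 h differed from that at 3 h in a test of the difference itself, at an unadjusted p under 0.05, for the members Tgfb1 (0.54) and Tgfbr1 (-0.50), whose values are given above. Of the listed pathway genes, it differed for Bmp2, a ligand of the BMP branch (0.71, with 0.47 and no call without replicate 2), and Smad6 (-0.52, with no call without replicate 3, at -0.56, or replicate 4, at -0.44). For the Losartan comparison, it differed for Id2, a helix-loop-helix inhibitor (1.18, with 0.66 and no call without replicate 2), and Ppm1a (0.76, with no call without replicate 1, at 0.77, or replicate 2, at 0.29). At 3 h, Id2 had -1.94 within the first scan and -0.12 within the second, and Ppm1a had -1.41 and -0.16. The part of the first scan in these differences was not tested. The limma adjusted p of the 6 differences between times lay between 0.669 and 0.701.

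Smad3, which entered no comparison, was well above background on 1 array, replicate 4 of Ang II+PD123319 at 6 h, with a log2 signal of 4.80 before normalization, against -0.14 to 1.80 on the other arrays. Of the 56 groups of 4 arrays tested over the members, 0 had a replicate set apart by Dixon's limit.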

How the results depend on the processing

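Over the members, 714 of 762 values kept their side of the limit, 675 of them with their direction and 39 with a change of sign in a value not called, while 35 lost a call and 13 gained one. Of 621 values of the listed genes that passed, 370 kept the call. In the unpaired form of the methods' t-test, added after seeing the data, the number of members past the limit was 0 in each of the 6 comparisons. Few of all genes passed it either. At 3 h, 291, 137 and 91 of 13627 did in Ang II x Control, with Losartan and with PD123319. At 6 h, 510, 75 and 179 of 16441 did. The number of members past the limit in Ang II x Control at 6 h, 3, was also 0 in the form paired by slide, and from 0 to 4 with replicates left out. Of all 16441 genes, 3534 passed there in the main fit and 1911 in the paired form, and 1874 to 3840 genes passed with replicates left out. In Ang II x Control at 3 h the number of members went from 0 to 2 in the paired form, where 1199 of 13627 genes passed. With Losartan at 3 h it went from 1 to 0 in the paired form, where 390 of 13627 genes passed, and was 0 to 1 with replicates left out. With PD123319 at 3 h it went from 1 (Skil) to 0 with no replicate block, 75th percentile scaling or quantile normalization. In these, 62, 468 and 413 of 13627 genes passed. The normexp background and no filter also gave 0 members, where 368 of 13627 and 968 of 26582 genes passed. The number of members was 0 too with the strict filter and in the fit of the deposited values, where Skil was left out. Skil had deposited values on 13 arrays at 3 h. With replicates left out, the number of members was 0 to 1. With PD123319 at 6 h it went from 0 to 1 in the paired form (Ltbp1) and after quantile normalization (Tgfb2). In these, 1430 and 1043 of 16441 genes passed. The number of members was 0 to 1 there with replicates left out. For the difference between times in Ang II x Control it went from 2 to 0 with no replicate block and to 1 with the normexp background. In these, 160 and 1051 of 13614 genes passed. With replicates left out, the number of members was 0 to 2 there and 0 to 1 for either antagonist. Gdf15 in Ang II x Control at 6 h turned to -0.04 with the normexp background. In scan 2 Bhlhe40 with Losartan at 3 h was 0.17, and in scan 4, replicate 4 only, Thbs1 with PD123319 at 6 h was 0.03. The causes were not tested. Without the block, which the slides call for, Tgfb1 in Ang II x Control at 6 h (0.42) also lost its call. No scaling moved the median of all genes by over 0.1. Among all genes, adjusted calls for Ang II against Control at 6 h numbered 0 here, 69 with the strict filter, 47 with the deposited values and 228 without replicate 3. Dim probes, such as those of Skil at 3 h and Smad3, limit what could be measured.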
